A study of Mus musculus with 2 samples.

Results

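The genes described here are 42 genes of mitosis and the mitotic spindle, chosen by name with earlier results of these data known. Each is the single gene symbol of at least 1 row of the authors' deposited table. They are 42 of the 20662 genes that the table names, and they are covered by 96 probe sets, the groups of short probes that together report 1 transcript on an Affymetrix array. Each gene was read from its brightest probe set, by the mean of the log2 signals of both arrays. Its other probe sets are given where they bear on it. For Bub1b, Bub3, Cdc20, Cdc25c, Pttg1, Prc1, Aurkb, Plk4, Incenp, Kif2c and Kif22, the brightest is of a class that can bind related transcripts. The cells were intraepithelial lymphocytes (IEL), T cells lodged among the epithelial cells of the gut, taken from the small intestine of C57BL/6 mice. Both groups came from RAG knockout recipients, which cannot make their own T or B cells, 8 weeks after they were given naive CD4 T cells, a transfer that leads to colitis. One group was CD4 IEL without CD8 alpha and the other CD4CD8aa IEL, CD4 cells that also carry CD8 alpha. Sources used here do not give which Rag gene was deleted, how old or how many the mice were, or how the sort was gated. RAG knockout hosts keep their own epithelial, myeloid and NK cells. Each group has 1 array and no replicate, so every difference compares these 2 arrays and carries no test, SD or p-value.

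A dividing cell enters mitosis when cyclin B and the kinase Cdk1 form an active complex, builds a spindle of microtubules with the help of kinesin motors, and attaches each chromosome to it at the kinetochore. The spindle checkpoint holds the cell until all chromosomes are attached, after which the anaphase-promoting complex triggers their separation and the cell is cut apart by cytokinesis. The messenger RNAs of most of these genes are made late in the cell cycle, so that in T cells, which divide after they meet antigen, their level in a population is commonly read as a sign of how many cells are cycling. That late expression depends on the MuvB complex, which together with repressors or with B-Myb and FoxM1 binds a short promoter element, the cell cycle genes homology region (CHR), often beside CCAAT boxes bound by the factor NF-Y.

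The promoters of the 42 genes show what they share besides their function, and 10 of the 11 sequences below are printed because they carry the letters of the CHR at or near the start of the gene. RefSeq promoters of build GRCm38.p6, each 300 bases long, were held for 35 of the genes, in 38 windows. Promoters of the other 7, Kif20a, Tpx2, Aurkb, Incenp, Cdc25c, Foxm1 and Ccna2, were not analysed here. The letters TTTGAA on either strand, the core of the CHR, were found in 25 of these 35 genes (71.4%), against 20.2% of the 27025 genes in the promoter table. Between 50 bases before and 50 bases after the start, a window set after the positions had been seen, 23 of the 35 genes held it (65.7%), against 5.72% of all genes in the table and 3.67% of the 10885 detected genes that are not among the 42. CCAAT on either strand was found in 25 of the 35 (71.4%), against 41.1% of all genes in the table. Of the 37 TTTGAA matches in these windows, 0 overlapped a match of another motif searched. A match describes letters in this window and is not a binding site.

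Of the promoters below, 100 bases before to 50 bases after the start are shown 5′ to 3′ in the direction of the gene, with TTTGAA and CCAAT, or their reverse complements, in capitals. The first 7 belong to genes with a higher signal in CD4CD8aa IEL, Racgap1, Anln and Cenpa to genes with a lower one, and Bub1 is shown because its window has CCAAT boxes and no TTTGAA.
Bub1b (chr2:118598111-118598260, plus strand): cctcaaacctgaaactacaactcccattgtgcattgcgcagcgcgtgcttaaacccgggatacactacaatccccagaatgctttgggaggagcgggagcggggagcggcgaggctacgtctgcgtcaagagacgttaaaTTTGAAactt
Aurka (chr2:172370521-172370670, minus strand): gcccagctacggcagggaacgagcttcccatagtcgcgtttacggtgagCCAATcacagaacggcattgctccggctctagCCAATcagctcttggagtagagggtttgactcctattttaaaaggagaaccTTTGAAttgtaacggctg
Plk1 (chr7:122159335-122159484, plus strand): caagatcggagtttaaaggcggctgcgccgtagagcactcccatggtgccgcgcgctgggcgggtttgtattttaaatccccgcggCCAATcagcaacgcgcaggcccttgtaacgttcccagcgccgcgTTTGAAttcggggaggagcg
Cdc20 (chr4:118437294-118437443, minus strand): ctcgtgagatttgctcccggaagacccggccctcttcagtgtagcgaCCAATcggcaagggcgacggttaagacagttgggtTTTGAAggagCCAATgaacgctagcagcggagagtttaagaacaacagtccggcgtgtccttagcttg
Ccnb2 (chr9:70421505-70421654, minus strand): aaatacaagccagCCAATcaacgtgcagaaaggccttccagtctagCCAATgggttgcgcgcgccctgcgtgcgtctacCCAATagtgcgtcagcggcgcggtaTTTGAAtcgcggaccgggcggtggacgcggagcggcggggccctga
Cdk1 (chr10:69352863-69353012, minus strand): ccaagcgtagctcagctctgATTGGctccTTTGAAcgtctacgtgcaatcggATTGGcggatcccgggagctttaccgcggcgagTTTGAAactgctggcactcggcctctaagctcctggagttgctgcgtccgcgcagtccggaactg
Espl1 (chr15:102296193-102296342, plus strand): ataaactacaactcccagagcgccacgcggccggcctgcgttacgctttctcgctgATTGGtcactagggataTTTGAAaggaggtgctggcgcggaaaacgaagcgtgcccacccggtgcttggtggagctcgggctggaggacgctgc
Racgap1 (chr15:99651607-99651756, minus strand): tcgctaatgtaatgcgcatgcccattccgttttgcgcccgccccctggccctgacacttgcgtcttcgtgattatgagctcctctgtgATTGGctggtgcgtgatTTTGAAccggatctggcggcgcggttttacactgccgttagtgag
Anln (chr9:22389157-22389306, minus strand): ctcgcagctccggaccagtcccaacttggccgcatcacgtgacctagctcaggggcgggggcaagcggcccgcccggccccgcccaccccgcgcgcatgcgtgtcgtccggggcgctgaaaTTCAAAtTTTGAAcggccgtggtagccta
Cenpa (chr5:30666786-30666935, plus strand): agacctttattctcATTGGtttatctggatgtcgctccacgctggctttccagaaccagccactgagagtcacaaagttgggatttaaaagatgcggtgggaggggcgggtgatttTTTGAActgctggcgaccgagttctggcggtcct
Bub1 (chr2:127831810-127831959, minus strand): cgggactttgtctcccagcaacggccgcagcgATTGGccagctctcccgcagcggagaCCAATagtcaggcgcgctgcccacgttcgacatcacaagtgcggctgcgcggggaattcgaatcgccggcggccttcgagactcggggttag

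The mark stands close to the start in genes of either direction. It lay at position 41 in Bub1b, the gene with the largest difference of the 42, and at position 17 in Cenpa, one of the genes with a lower signal in CD4CD8aa IEL, where base 1 is the first base of the gene. The 25 genes with TTTGAA in the 300 bases had a median log2 difference of 0.32 and the 10 genes without it one of 0.28, with ranges of -0.41 to 1.07 and -0.50 to 0.65 that overlapped.

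Each signal is a multiple of its array's median, which before that division was 82.5 for CD4 IEL and 81.1 for CD4CD8aa IEL. Differences are log2 of CD4CD8aa IEL minus log2 of CD4 IEL. Signals below 0.4 times the array median were raised to that floor, and a gene counted as detected if at least 1 array lay above it. All of the 42 genes were detected, 41 of them on both arrays, against 17375 of the 20662 genes. As a check of the sort, Cd8a measured 3.79 without the CD8 alpha sort and 291.4 with it, which is how the cells were chosen, and Cd4 had 72.6 and 86.4. The spread between detected probe sets of the same gene was the only measure of error at hand. Its SD on the log2 scale fell with signal, from 0.81 below the array median to 0.45 between 4 and 16 times and 0.35 above 64 times the median, and it covers neither animals nor RNA preparations.

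**Figure D1:**
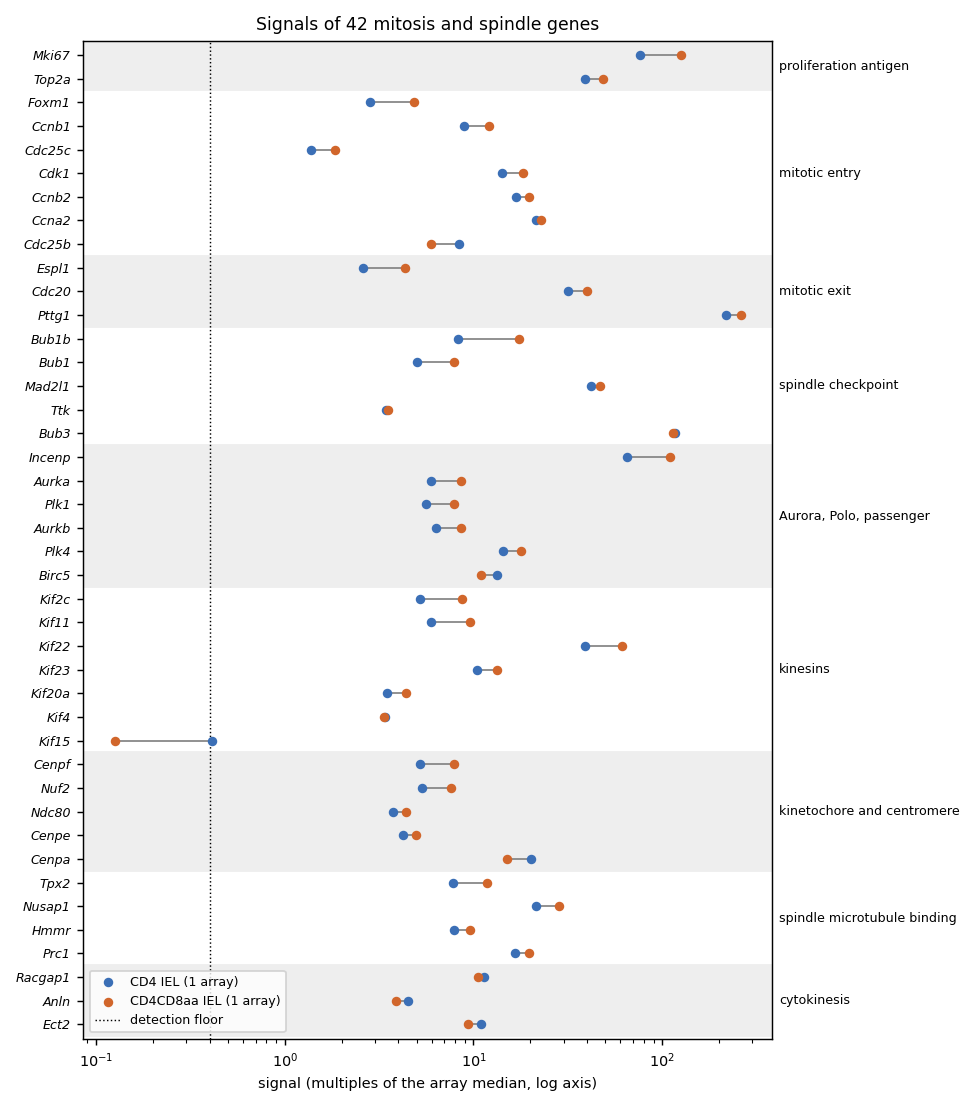
Signal of each of the 42 genes in CD4 IEL (blue) and CD4CD8aa IEL (orange), 1 array each, as multiples of the array median on a log axis, grouped by role. For 33 of the 42 genes the orange point lies to the right of the blue one, most by a small step, and Kif15 alone reaches the dotted detection floor of 0.4.

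Mitosis and spindle genes had slightly higher signals in CD4CD8aa IEL as a group. Their median log2 difference was 0.33, against 0.06 for all detected genes, and 33 of the 42 lay above 0 (78.6%), against 54.8% of all detected genes. A log2 difference of 0.32 or more was seen in 22 of the 42 (52.4%), against 30.9% of all detected genes, and one of -0.32 or less in 2, Cdc25b and Cenpa, against 24.5%. Differences of 2-fold were rare. Only Bub1b reached 2-fold in the upward direction (1 of 42, against 6.65% of all detected genes), and no gene did so downward (0 of 42, against 6.28%). The middle of the distribution lay higher with few genes at 2-fold, and the 42 differences ran from -0.50 to 1.07. The 2-fold shares of all detected genes depended on signal. Among genes above 4 times the array median on both arrays, they were 1.63% upward and 1.32% downward. Of the 33 mitosis and spindle genes within that limit, which was added with the values in view, 1 was 2-fold higher and 0 were 2-fold lower. In RNA of a sorted population, more cycling cells and more RNA per cycling cell cannot be told apart.

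**Figure D2:**
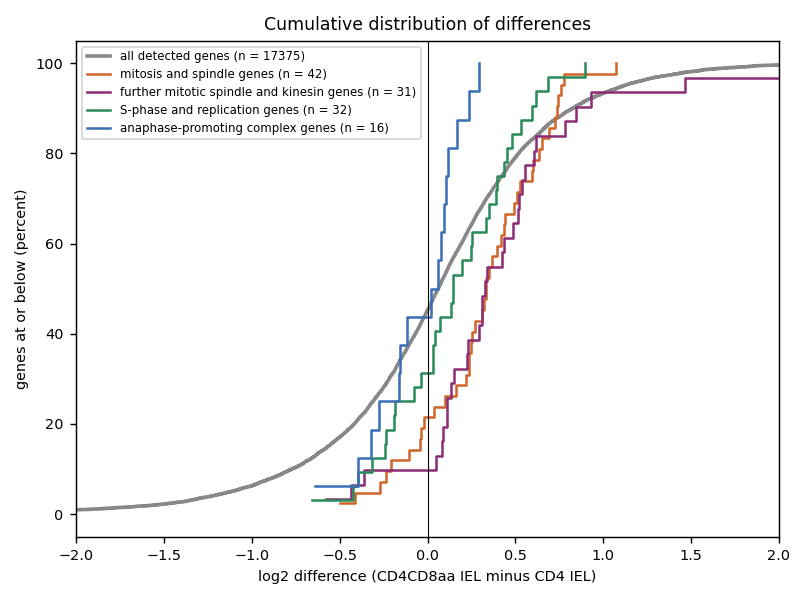
Cumulative share of genes (percent) against the log2 difference, CD4CD8aa IEL minus CD4 IEL, for all 17375 detected genes and for 4 cell cycle lists. The curve of the 42 mitosis and spindle genes (orange) crosses its median at 0.33 and lies near that of the 31 further spindle and kinesin genes, while that of the 16 anaphase-promoting complex genes crosses its median at 0.04.

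Single genes seldom stood clear of the measurement error. The difference exceeded the same-gene SD at that signal for 16 of the 42 genes (38.1%), against 31.6% of all detected genes, so that by this measure the single genes were near the background. Of these 16, 14 were higher in CD4CD8aa IEL. The split by direction of all detected genes beyond that SD was not calculated. The RNA controls of the arrays also differed. The ratio of 3′ to 5′ signal, which grows as RNA is shorter or less fully copied, was 1.50 in CD4 IEL and 2.03 in CD4CD8aa IEL for beta-actin and 3.39 and 4.78 for Gapdh. Their part in the result was not tested.

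**Figure D3:**
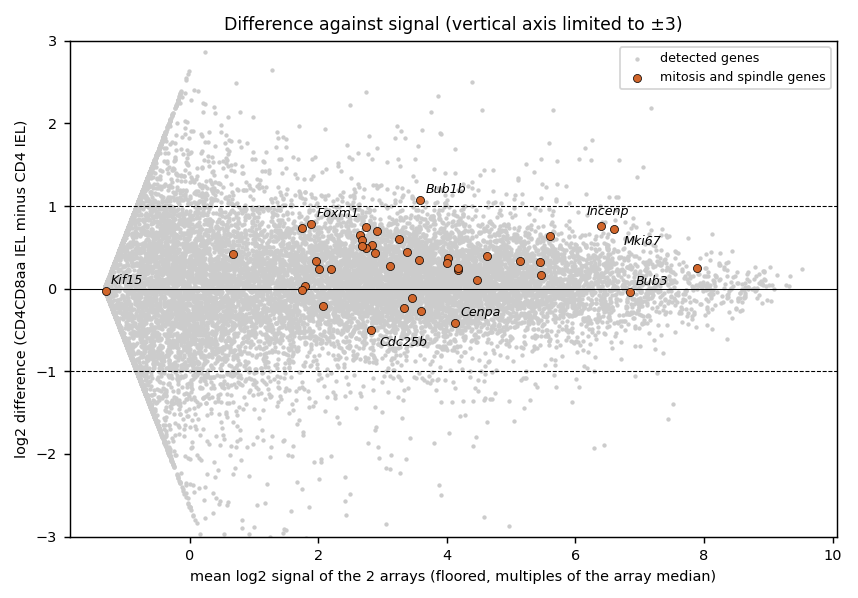
Log2 difference of each detected gene (grey) and of the 42 genes (orange) against the mean log2 signal of the 2 arrays, with dashed lines at 2-fold. Most orange points lie between 0 and the upper dashed line over the whole range of signal, Bub1b lies just above that line, and Cdc25b and Cenpa lie lowest.

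Among the general marks of dividing cells, Mki67, which encodes the Ki-67 antigen, gave 75.8 in CD4 IEL and 125.2 in CD4CD8aa IEL. It was 1.65-fold higher, a log2 difference of 0.72 where the same-gene SD was 0.35. Top2a, the topoisomerase that untangles sister chromosomes, had 39.0 and 48.7, or 0.321 on the log2 scale, with 0.50 at its dimmer detected probe set. Both genes thus had the higher signal in CD4CD8aa IEL, Mki67 beyond the same-gene SD and Top2a within it.

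Of the 7 genes of mitotic entry, 6 had a higher signal in CD4CD8aa IEL, with a median log2 difference of 0.37. Foxm1, the transcription factor that acts with MuvB and B-Myb on late cell cycle genes, had 2.84 in CD4 IEL and 4.86 in CD4CD8aa IEL, a log2 difference of 0.78. Its other 2 detected probe sets gave 0.22 and 2.49, all in the same direction. Cdk1, the kinase that drives mitosis, had 14.2 and 18.3, a log2 difference of 0.37. Its cyclin partners had 8.92 and 12.1 for Ccnb1 (0.44), 16.8 and 19.6 for Ccnb2 (0.22) and 21.3 and 22.9 for Ccna2 (0.10), the cyclin of S and G2 phase. A second probe set of Ccna2, about as bright, had 19.6 and 23.7 (0.27). Of the phosphatases that activate Cdk1, Cdc25c had 1.38 and 1.84 (0.42), less than the same-gene SD of 0.67 for signals this dim. Cdc25b, which acts first in G2, had 8.36 and 5.92 and was 1.41-fold lower, the lowest of the 42 differences (-0.50).

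The spindle checkpoint held the gene with the largest difference. Bub1b, which encodes the checkpoint protein BubR1, had 8.32 and 17.5 at its brightest probe set, 2.10-fold higher in CD4CD8aa IEL. A second probe set had 5.40 and 11.1, 2.05-fold higher, while the other lay near the array median, at 0.96 and 0.14, at least 2.40-fold lower. Both probe sets with clear signal thus gave nearly the same difference, and the dim one the opposite. Bub1, the kinase that works beside it at the kinetochore, had 5.03 and 7.91, 1.57-fold higher. The remaining checkpoint genes differed little at their brightest probe sets. Mad2l1, which encodes the inhibitor Mad2, had 42.02 and 46.9 (0.16), Ttk, the kinase Mps1, 3.44 and 3.52 (0.03) and Bub3, the adaptor that brings Bub1 and BubR1 to kinetochores, 116.8 and 113.5 (-0.04). A dim probe set of Ttk had 0.78 and 1.22 (0.65). Of the other detected probe sets of Bub3, 1 at 8.65 and 5.87 gave -0.56, a dim one -0.27, and another dim one was at least 2.36-fold lower, with its CD4CD8aa IEL signal below the floor.

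Genes of mitotic exit were all higher in CD4CD8aa IEL at their brightest probe sets. Espl1, the protease separase that cuts the cohesin between sister chromosomes, had 2.60 in CD4 IEL and 4.34 in CD4CD8aa IEL, a log2 difference of 0.74, which was 0.12 when the floor was raised to 4 times the median. Cdc20, which activates the anaphase-promoting complex, had 31.5 and 39.8 (0.34), and Pttg1, the separase inhibitor securin, had 218.8 and 260.3 (0.25). A second probe set of Cdc20 gave 0.17 and a dim one -0.47, while the dimmer probe sets of Pttg1 gave 0.04 and 0.36. Only Espl1 exceeded the same-gene SD at its signal.

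Among the mitotic kinases, Aurka had 5.98 in CD4 IEL and 8.60 in CD4CD8aa IEL (0.53), Plk1 5.64 and 7.91 (0.49), Aurkb 6.32 and 8.56 (0.44) and Plk4, which duplicates centrioles, 14.4 and 17.8 (0.31). The 4 Aurora and Polo kinases thus lay in a narrow band of 0.31 to 0.53. Only for Plk4 did other detected probe sets point the other way, at -0.14 and -0.55. The chromosomal passenger complex, which holds Aurora B in place, was split. Incenp, its scaffold, had 64.8 and 109.7, 1.69-fold higher, at a probe set of the class that can bind related transcripts, and by 0.32 on the log2 scale at its other detected probe set. Birc5, the subunit survivin, had 13.3 and 10.99 and was 1.21-fold lower.

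**Figure D4:**
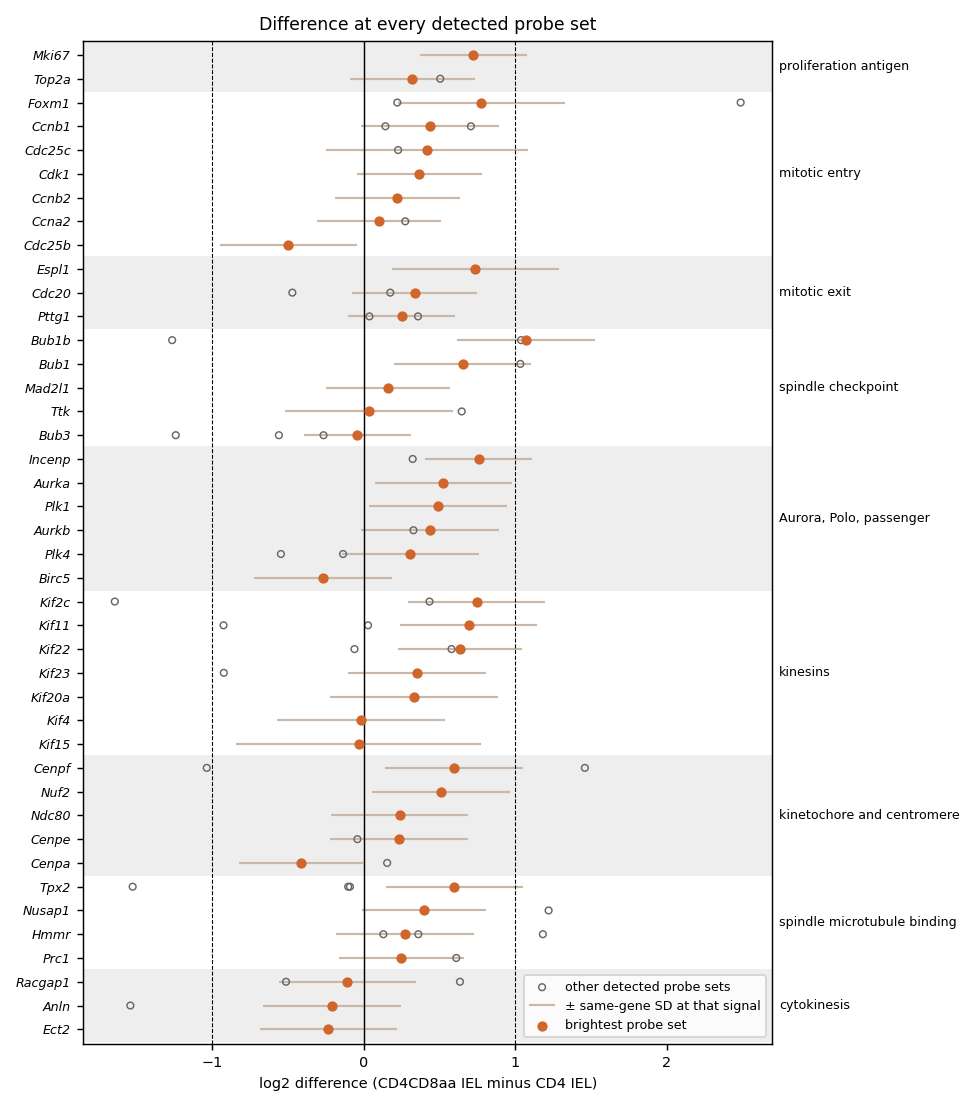
Log2 difference, CD4CD8aa IEL minus CD4 IEL, at the brightest probe set of each gene (filled, with a line of ± the same-gene SD at its signal) and at its other detected probe sets (open), with dashed lines at 2-fold. The open points scatter more widely than the filled ones, from -1.64 (Kif2c) to 2.49 (Foxm1), and most of the far ones belong to dim probe sets.

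Of the 7 kinesins, 5 were higher in CD4CD8aa IEL by 0.32 or more on the log2 scale. The others were Kif4 and Kif15. Kif2c, a kinesin that takes microtubules apart at kinetochores, had 5.18 in CD4 IEL and 8.68 in CD4CD8aa IEL (0.74), and Kif11, which pushes the spindle poles apart, had 5.93 and 9.58 (0.69). Their other probe sets did not bear this out in full. A second probe set of Kif11, of like signal, had 6.37 and 6.49 (0.03), and a dimmer one had 2.05 and 1.08 (-0.93). Dim probe sets of Kif2c gave -1.64 and 0.43. Kif22, which moves chromosome arms, had 39.2 and 60.9 (0.64) at a probe set that can bind related transcripts. A second probe set, which is also of that class, gave 0.58. The only one of Kif22 outside that class was dim and gave -0.06. Kif23 and Kif20a, motors of the central spindle, had 10.5 and 13.4 (0.35) and 3.48 and 4.37 (0.33), with -0.92 at a dim probe set of Kif23. Kif4, which shortens central spindle microtubules, had 3.38 and 3.34 (-0.02). Kif15, which can stand in for Kif11, had 0.41 in CD4 IEL, just over the floor, and 0.13 in CD4CD8aa IEL, below it, so that its difference is only a bound (-0.03).

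At the kinetochore and centromere, Cenpf, a large kinetochore protein of late cell cycle, had 5.24 in CD4 IEL and 7.90 in CD4CD8aa IEL (0.59), and Nuf2, a subunit of the complex that grips microtubules, 5.36 and 7.63 (0.51). The other 2 detected probe sets of Cenpf were dim and opposed each other, 1 at -1.04 and the other at least 2.75-fold higher, from below the floor in CD4 IEL. The Nuf2 partner Ndc80 had 3.73 and 4.40 (0.24) and the kinetochore kinesin Cenpe 4.23 and 4.97 (0.23), both within the same-gene SD. Cenpa, the histone that marks centromeres, had 20.2 and 15.1 and was 1.33-fold lower. A second probe set of Cenpa gave 0.15, so that its direction rests on the brighter one.

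All of the 4 genes that bind spindle microtubules were higher in CD4CD8aa IEL, with a median log2 difference of 0.33. Tpx2, which activates Aurora A on the spindle, had 7.81 in CD4 IEL and 11.8 in CD4CD8aa IEL (0.60), while its other 3 probe sets lay near or under the array median. Their differences were -0.09 and -0.10, and the last was at least 2.88-fold lower, with its CD4CD8aa IEL signal below the floor. Nusap1, which bundles spindle microtubules, had 21.5 and 28.3 (0.40), Hmmr, a spindle assembly factor, 7.93 and 9.57 (0.27) and Prc1, which bundles the central spindle, 16.6 and 19.7 (0.25). A dimmer probe set of Prc1 gave 0.61 and those of Hmmr between 0.13 and 1.18.

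The 3 genes grouped here under cytokinesis were the group in which no member was higher at its brightest probe set. Genes of the central spindle that were placed in other groups did not share this. Kif23 (0.35), Kif20a (0.33) and Prc1 (0.25) were higher, and Kif4 was at -0.02. Ect2, which acts at the cleavage furrow, had 10.96 in CD4 IEL and 9.32 in CD4CD8aa IEL (-0.23), Anln, the scaffold anillin, 4.51 and 3.90 (-0.21) and Racgap1, the partner of Kif23 in the centralspindlin complex, 11.4 and 10.6 (-0.11). All 3 differences lie within the same-gene SD of 0.45 at these signals. A second bright probe set of Racgap1 went the other way, with 8.09 and 12.6, 1.55-fold higher.

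Agreement between probe sets followed signal. Of the 96 probe sets, 86 were detected. Of the 59 that lay above 2 times the array median on both arrays, 48 had a higher signal in CD4CD8aa IEL, with a median log2 difference of 0.32 and a range from -0.56 to 1.07. Of the other 27, 11 were higher, with a median of -0.09 and a range from -1.64 to 2.49. Counting all detected probe sets, 27 genes had at least 2. Of these 27, 13 had all of them higher in CD4CD8aa IEL, 2 had all lower and 12 were mixed. Of the 18 genes with at least 2 of the brighter probe sets, 13 had all of those higher in CD4CD8aa IEL. Among the 18, 1 (Bub3) had all lower and 4 (Cenpa, Cenpe, Plk4 and Racgap1) were mixed. The matching shares over all probe sets of the array were not calculated, so these counts of probe sets have no background beside them. A limit to genes above 4 times the array median on both arrays, added with the values in view, left 33 of the 42, with a median of 0.35 and 27 above 0 (81.8%), against 0.07 and 58.5% for the 7376 genes of that signal.

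Other genes of the cell cycle, read the same way, differed in how far their medians lay from that of all detected genes. The 31 detected further genes of the spindle and of mitotic kinesins had a median log2 difference of 0.33, and 28 of them lay above 0 (90.3%). Of the 31, 2 were at least 2-fold higher, a share near that of all detected genes, and no gene was 2-fold lower. The 2 were Mad1l1, a checkpoint partner of Mad2, which had 0.44 in CD4 IEL and 1.76 in CD4CD8aa IEL, and Gtse1, a microtubule-binding protein of G2 phase, which had 1.71 and 4.70 and was named after its values were seen. The 18 condensin and cohesin genes, which shape and hold together chromosomes, had a median of 0.31 with 14 above 0 (77.8%). None was at 2-fold in either direction. In contrast, the 16 genes of the anaphase-promoting complex had a median of 0.04 with 9 above 0 (56.25%). The 27 further kinetochore genes had a median of 0.04 with 16 above 0 (59.3%) and 1, Cenpi, at least 2.45-fold lower. These medians are near that of all detected genes, and the differences between the lists carry no test.

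**Figure D5:**
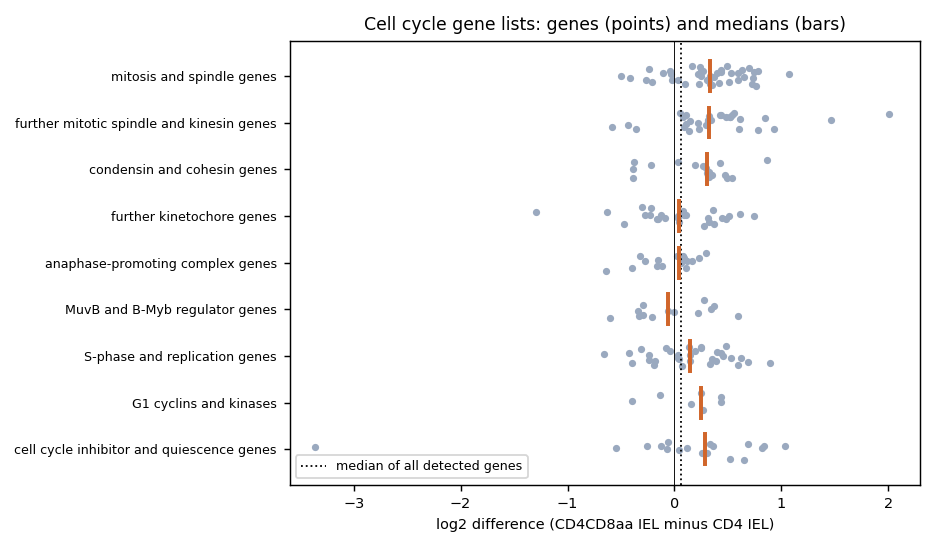
Log2 difference of each detected gene (points) in 9 cell cycle lists, with the list median (bar) and the median of all detected genes (dotted, 0.06). The bars of the 42 mitosis and spindle genes (0.33), of the further spindle genes (0.33) and of condensin and cohesin (0.31) stand right of the dotted line, those of the kinetochore and anaphase-promoting complex lists lie close to it, and Klf2 is the far point at -3.37.

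The regulators and the earlier phases of the cycle gave smaller medians than the 42 genes. MuvB, B-Myb and the related pocket protein and E2F genes had a median of -0.06 over 13 detected genes. Of these, 5 lay above 0 (38.5%, against 54.8% of all detected genes). S-phase and replication genes had a median of 0.14 over 32 genes, with 22 above 0 (68.75%) and none at 2-fold. The 7 G1 cyclins and kinases had a median of 0.25. Cell cycle inhibitors and quiescence genes, which act against division, had a median of 0.28 over 18 genes, with 12 above 0 (66.7%). This list too thus lay above the median of all detected genes. Foxo3, a transcription factor of resting cells, had 18.3 and 37.5, 2.05-fold higher in CD4CD8aa IEL. Klf2, which keeps T cells quiescent and in circulation, had 25.6 and 2.49, 10.3-fold lower.

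The letters TTTGAA were looked for in the promoters of these lists as well. They stood within 50 bases of the start in 11 of 26 further spindle and kinesin genes (42.3%) and in 5 of 14 condensin and cohesin genes (35.7%). They did so in 7 of 26 further kinetochore genes (26.9%), 2 of 15 anaphase-promoting complex genes (13.3%) and 2 of 25 S-phase genes (8.00%), and in 0 of 16 inhibitor and quiescence genes. These shares count letters in RefSeq promoters and use no signal of the arrays.

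Markers of the other cells that a sort from the gut wall could hold were read on both arrays, and their signals are compared between the arrays, not between genes. The 8 T cell markers summed to 1397 in CD4 IEL and to 1481 in CD4CD8aa IEL. The 16 epithelial and crypt markers summed to 48.9 and 35.4, with 13 and 12 of them above the floor, and no single one over 13.3 and 8.07. Of the 14 detected, 5 were higher in CD4CD8aa IEL and 9 lower, with a median log2 difference of -0.51. Within the list Krt18, an epithelial keratin, had 13.3 and 4.74, whereas Lgr5, the receptor that marks dividing crypt stem cells, lay below the floor in CD4 IEL (0.095) and had 1.45 in CD4CD8aa IEL, at least 3.63-fold higher. The crypt stem cell gene Ascl2 was below the floor on both arrays. Smoc2 and Olfm4, also crypt genes of this list, went the other way from Lgr5. Smoc2 had 4.25 and 1.69, and Olfm4 had 0.59 and 0.090, the last value being below the floor. The 8 myeloid and dendritic cell markers summed to 22.7 and 26.4, with Itgax, an integrin of dendritic and some T cells, 3.02-fold higher and Cd14, a monocyte receptor, 2.98-fold lower. The 4 B cell markers found summed to 2.60 and 1.75, with Cd79b, a B cell receptor chain, 3.38-fold lower. Among the T cell markers, Cd3e was 2.01-fold higher and Cd2 6.78-fold lower. The part of these other cells in the mitosis signals was not tested.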

How the data were processed

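Gene expression was measured on 2 single-colour Affymetrix arrays of 45101 probe sets, 1 per sorted population. Per the submitters' processing notes, signals were made with GCOS 1.2, and per the series' design text the data were analysed in GeneSpring GX10. No source used here gives the background correction or the summarisation. The deposited table of the authors holds raw intensities and intensities divided by the array median. The authors' deposited table also holds a log2 fold and a linear fold ratio, CD4 over CD4CD8aa, which were used only to check that the log2 difference computed here has the opposite sign and the same size.

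The full-precision quotient of raw signal and array median was used. A floor of 0.4, the higher 30th percentile of the arrays, was applied before log2. Of the probe sets, 37781 name 1 gene. Those with several symbols (1399, of which 4 include one of the 42 genes), no symbol (5821), symbols turned into dates or numbers (36) or control status (64) were left out. The number of arrays limits the precision. Thresholds were 1.25-fold, a log2 difference of 0.322, and 2-fold, a log2 difference of 1. The same-gene SD is the SD of the log2 differences of a gene's detected probe sets around their mean, within bands of signal. The motifs searched, on both strands, were TTTGAA for the CHR and CCAAT for NF-Y. A CHR variant with the letters TTTAAA and 2 spellings of the E2F site were also searched. Of other lists, the gene with the largest difference in each direction was named if it reached 2-fold. The members, lists and rules were chosen with earlier results of these data known. The alternatives, apart from 2 added later, changed the normalization, the floor, the probe set of a gene and the source of the values. The calculation was tested on simulated data. Python 3.11.15, numpy 2.4.6, pandas 2.3.3 and matplotlib 3.10.9 were used.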

Additional observations from a re-analysis of the deposited data

How the results depend on the processing

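No paired analysis was possible because each group has 1 array, and no array could be left out. The median log2 difference of the 42 genes stayed between 0.26 (mean over detected probe sets) and 0.35 (genes above 4 times the array median on both arrays) under all 15 alternatives, while that of all detected genes stayed between 0.00 and 0.07. Among these alternatives, the other deposited copy of the values and the matching of older gene symbols gave the main values again and add no check. The share above 0 was lowest, 29 of 42, with the mean over detected probe sets (69.0%, against 52.3% of all detected genes). The number at 0.32 or more ran from 18 to 22, with 33 to 42 genes left by the setting. As a share it ran from 42.9% (18 of 42, differences centred on the median of all detected genes) to 54.5% (18 of 33). The share of all genes ran from 24.6% to 33.4%. At least 2-fold lower was 1 of 42 genes without a floor, against 12.95% of all genes. It was Kif15 (-1.70), whose signal is just over the floor in CD4 IEL and below it in CD4CD8aa IEL. At least 2-fold higher were 2 of 33 genes without the probe sets marked _s_at, _x_at or _a_at, against 7.18% of all detected genes. This setting was added with the values in view. The count rose since Hmmr then took a dim probe set (1.18). Single genes depended most on the probe set used. With the mean over detected probe sets, 6 genes changed sign, among them Kif11 (-0.07), Kif2c (-0.15), Kif23 (-0.29) and Tpx2 (-0.28), and Bub1b was at 0.28. Without probe sets marked _s_at or _x_at, Kif22 was at -0.06, Plk4 at -0.14 and Incenp at 0.32, and Aurkb had no probe set left. With dim signals the array could not resolve differences: the same-gene SD was 0.81 below the array median.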
